A study of Mus musculus with 30 samples.

Results

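Plasminogen activation was followed through 4 genes: Plau, Plat, Plaur and Serpine2. They were selected on RNA values measured in these libraries and on their shared pathway, and they are 4 of the 35972 genes present in both deposited RNA tables. Their RNA differences between treatments are therefore given as a description. Where a call from the fit over all genes is named for them, it only places them beside the other genes and is no evidence of its own.

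Plasminogen is a circulating zymogen that proteases cut into plasmin, which degrades fibrin and other matrix proteins and activates latent growth factors and metalloproteinases. Plau encodes urokinase (uPA) and Plat encodes tissue plasminogen activator (tPA), the main enzymes that make this cut. Plaur encodes the lipid-anchored receptor that holds urokinase at the cell surface. Serpine2 encodes protease nexin-1, a serpin that inhibits thrombin, urokinase and tissue plasminogen activator around cells. In tendon and other connective tissue this system is known for its part in matrix turnover and repair.

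All 30 libraries came from primary, wildtype mouse tail tendon fibroblasts kept in medium with 0.1% serum during treatment, with 3 libraries in each group. RNA was sequenced from cells given the solvent DMSO, blebbistatin at 10 µM, which inhibits non-muscle myosin II, or Y27632 at 30 µM, a kinase inhibitor; both drugs lower actomyosin contractility. Open chromatin was assayed by ATAC-seq, which reads where a transposase can enter DNA, in 9 more libraries with the same 3 treatments. The other 12 genomic libraries formed 4 groups given neither drug, blebbistatin at 10 µM, doxycycline at 10 ng/mL, or both; the labels do not name what doxycycline switches on, although the stated aim of the series concerns mechanical cues and the transcriptional co-activators Yap and Taz. The labels do not say whether replicate libraries came from separate cultures or animals, so p-values here measure only the spread between these libraries.

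The RNA libraries held 23375386 to 37061737 reads in genes. All 9 fibroblast and tendon markers checked were detected in every library, with a summed level of 19930 to 23486 CPM (the reads of a gene scaled to a fixed total of reads in genes per library). Keratinocyte markers summed to at most 0.76 and skeletal muscle markers to at most 1.30 CPM. Of the 9 fibroblast and tendon markers, limma called 4 higher and 4 lower under blebbistatin, and 4 higher and 0 lower under Y27632. Of all genes tested, 26.1% were called higher and 26.9% lower under blebbistatin, and 18.1% and 17.8% under Y27632. The marker calls in this paragraph are to be read beside these shares. Log2 changes under blebbistatin and Y27632 were 0.58 and 0.59 for Pdgfra, 0.45 and 0.77 for Lum, and -0.25 and -0.10 for Col1a1. Markers of 4 other cell types also moved with treatment. The 5 macrophage and leukocyte markers (Ptprc, Cd68, Adgre1, Csf1r and Itgam) summed to 61.4 to 69.3 CPM with DMSO, 87.0 to 102 with blebbistatin and 84.6 to 99.4 with Y27632, and all 5 of 5 were called higher by limma under each drug. The 5 endothelial markers summed to 119 to 121, 75.4 to 84.5 and 107 to 114 CPM in the same order; nearly all of it was Tek, while Pecam1, Kdr and Tie1 stayed under 1 CPM. Tek was lower under both drugs, while the other endothelial markers tested did not pass, with log2 changes of 0.30 and 0.34 for Cdh5 and 0.60 and 0.41 for Kdr; the median over the 3 tested was 0.30 and 0.34. The 3 smooth muscle and pericyte markers summed to 75.5 to 83.6, 85.7 to 97.4 and 83.1 to 104 CPM, mostly Cspg4, which was called higher under both drugs (0.23 and 0.27), while Rgs5 was called lower under blebbistatin (-0.52). The 3 Schwann cell markers summed to 4.38 to 5.23, 5.76 to 6.21 and 5.15 to 6.23 CPM, and Sox10, with 18 to 54 reads per library, was called higher under both (0.96 and 0.88). The part of these cells in the results was not tested.

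Reference sequence helps to place the genes. First come the 250 bases before the transcription start of Serpine2 and Plaur, from RefSeq on GRCm38.p6, the assembly behind mm10; the table used holds these 2 of the 4 genes. Capitals mark the letters GGGCGG (the Sp1 GC box) and TGANTCA (the AP-1 site), searched on both strands.
Serpine2, chr1:79858666-79858915, minus strand: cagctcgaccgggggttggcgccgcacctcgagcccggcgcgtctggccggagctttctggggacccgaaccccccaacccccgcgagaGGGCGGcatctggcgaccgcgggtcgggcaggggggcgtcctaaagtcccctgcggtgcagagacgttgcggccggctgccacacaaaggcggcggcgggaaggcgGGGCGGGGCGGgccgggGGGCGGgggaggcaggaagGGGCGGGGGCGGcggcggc
Plaur, chr7:24462233-24462482, plus strand: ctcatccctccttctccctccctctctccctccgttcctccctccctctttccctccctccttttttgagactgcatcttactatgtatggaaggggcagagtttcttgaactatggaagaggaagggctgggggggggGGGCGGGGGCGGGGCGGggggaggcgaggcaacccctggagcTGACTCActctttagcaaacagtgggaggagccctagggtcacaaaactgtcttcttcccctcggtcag
The Serpine2 stretch held 78.8% G and C, 34 CpG pairs and 6 GC boxes, some of them overlapping. The Plaur stretch held 59.6% G and C, 6 CpG pairs, 3 GC boxes and 1 AP-1 match that begins 69 bases before the start. Over 32536 mouse promoter windows of the same length the median was 52.4% G and C; 33.0% held a GC box and 6.73% an AP-1 match. Neither stretch held GGAATG, the core of the TEAD motif (12.6% of windows), TATAAA, the TATA box (12.3%), or the SRF CArG box (1.48%). A match is a description of letters, and its absence says nothing about binding of the factor.

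A further sequence comes from the deposited site list of blebbistatin against DMSO. One listed site lies 44504 bases before the Serpine2 start, and the authors' table gives it an instance of a motif they named as TEAD, the family of DNA-binding partners of Yap and Taz. The GGAATG core is in capitals, on the plus strand.
Serpine2 site, chr1:79903058-79903279: tGGAATGtct
In that list 603 of 970 sites (62.2%) carry such an instance, so the motif is a common property of the list.

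Of the activating enzymes, urokinase RNA was higher under both drugs. Plau, on chr14:20836662-20843388 (plus strand), had normalised read counts of 1608, 1543 and 1490 with DMSO and 2377, 2303 and 2234 with blebbistatin. In the table normalised for Y27632, the same DMSO libraries read 1672, 1602 and 1548, against 2802, 2377 and 2926 with Y27632. Every treated library lay above every DMSO library, and the Y27632 libraries spread more widely than either other group. Group means were 1547 ± 59.4 against 2305 ± 71.1 (SD, n = 3 libraries each) for blebbistatin and 1608 ± 62.1 against 2702 ± 288 for Y27632. On the log2(value + 1) scale the limma estimate was 0.57 (SE 0.042, 95% interval 0.48 to 0.67), a 1.49-fold higher level, for blebbistatin. For Y27632 it was 0.74 (SE 0.063, 95% interval 0.61 to 0.88), or 1.67-fold. In bulk RNA of this kind, more cells of a type and more RNA per cell cannot be told apart.

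The macrophage and leukocyte markers moved in the same direction as Plau. Their summed level was 65.7 ± 3.98 CPM with DMSO, 93.0 ± 7.8 with blebbistatin and 93.2 ± 7.7 with Y27632 (SD, n = 3). Within the Y27632 group, replicate 2 was lowest both for Plau, at 86.2 against 102 and 106 CPM, and for these markers, at 84.6 against 99.4 and 95.7. Within the blebbistatin group the libraries were ordered differently, with Plau at 89.4, 87.4 and 83.9 and the markers at 87.0, 102 and 90.1 CPM in replicates 1 to 3. With only 3 libraries per group, nothing is read from these orders. By gene, the log2 changes under blebbistatin and Y27632 were 0.58 and 0.55 for Cd68, a lysosomal protein of phagocytes. For Itgam, an integrin of myeloid cells, they were 0.57 and 0.66. The other markers were at 0.48 and 0.57 (Adgre1), 0.43 and 0.42 (Ptprc) and 0.32 and 0.22 (Csf1r). The direction was not particular to leukocyte markers. Fibroblast markers called higher under both drugs included Pdgfra (0.58 and 0.59), Lum (0.45 and 0.77) and Dcn (0.28 and 0.31). Sox10, a Schwann cell marker, was at 0.96 and 0.88. Of the 9 fibroblast and tendon markers, 4 were called lower under blebbistatin and 0 under Y27632. The shares called lower among all genes tested were 26.9% and 17.8%. The part of any of these cells in the Plau difference was not tested.

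Tissue plasminogen activator RNA was lower under both drugs. Plat, on chr8:22757722-22782848 (plus strand), had normalised counts of 8547, 8823 and 8943 with DMSO and 8302, 8159 and 7771 with blebbistatin. In the Y27632 table the counts were 8885, 9159 and 9294 with DMSO and 7527, 6955 and 7367 with Y27632. Neither treated group overlapped DMSO, and all 3 Y27632 libraries lay below all 3 blebbistatin libraries once the 9 libraries were put on a common scale (252 to 274 against 292 to 312 CPM, with 322 to 337 for DMSO). Means were 8771 ± 203 against 8077 ± 275 for blebbistatin and 9113 ± 208 against 7283 ± 295 for Y27632 (SD, n = 3 each). The fitted log2 difference was -0.12 (SE 0.034, 95% interval -0.19 to -0.045), a ratio of 0.921, for blebbistatin. It was -0.32 (SE 0.035, 95% interval -0.40 to -0.25), a ratio of 0.799, for Y27632. Endothelial cells are a known source of tissue plasminogen activator; Tek, the endothelial marker that made up most of its list, was at -0.63 under blebbistatin and -0.14 under Y27632. Cdh5 and Kdr, the other endothelial markers tested, had positive values under both drugs and did not pass. Pecam1, Kdr and Tie1 stayed under 1 CPM in every library, beside 71.5 to 118 CPM for Tek. The part of endothelial cells in the Plat difference was not tested.

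The receptor gene differed little. Plaur, on chr7:24460937-24475970 (plus strand; the start used for its promoter and for distances is that of a transcript beginning at 24462483, inside the annotated gene), was the most thinly sequenced of the 4, with 466 to 707 reads per library against 5309 to 8990 for Serpine2. Its normalised counts were 524.2, 514.1 and 584.7 with DMSO and 540.1, 482.6 and 446.5 with blebbistatin. The Y27632 table gave 545.0, 533.7 and 607.6 with DMSO and 531.5, 504.7 and 555.5 with Y27632. Treated and DMSO libraries overlapped in both tables. The fitted log2 difference was -0.15 (SE 0.079, 95% interval -0.32 to 0.026) under blebbistatin and -0.082 (SE 0.065, 95% interval -0.22 to 0.060) under Y27632. Without DMSO replicate 3 the Y27632 value was -0.025, and over all single libraries left out it ranged from -0.12 to -0.025. Both intervals include no change and also a reduction of moderate size. The blebbistatin value depended on replicate 1 of that group, without which it was -0.22 and passed the threshold used for all genes.

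The inhibitor gene was nearly level. Serpine2, on chr1:79794317-79858665 (minus strand), had normalised counts of 5892, 6104 and 6099 with DMSO and 6444, 6242 and 6123 with blebbistatin. In the Y27632 table the values were 6125, 6336 and 6338 with DMSO and 6758, 6506 and 6629 with Y27632. All treated libraries stood above the DMSO libraries in these tables, but by a margin of under 1 SD for blebbistatin, whose replicate 3 fell just below the highest DMSO library when the 9 libraries were scaled together (229.8 against 230.1 CPM). The fitted log2 difference was 0.056 (SE 0.032, 95% interval -0.015 to 0.13) for blebbistatin and 0.082 (SE 0.030, 95% interval 0.016 to 0.15) for Y27632, and neither passed the threshold of an adjusted p under 0.05 over all genes. With library scaling by edgeR's TMM method the Y27632 value was 0.087 and passed it.

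**Figure D1:**
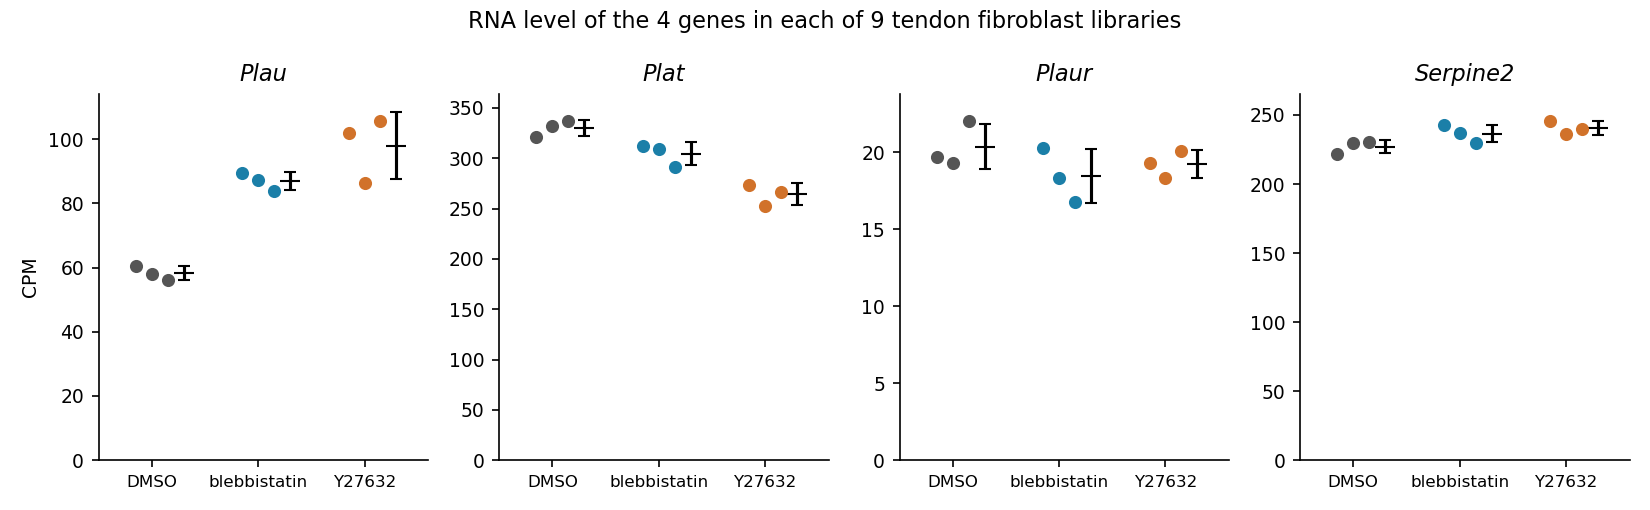
RNA level of Plau, Plat, Plaur and Serpine2 in CPM (vertical axes, each from 0) for the 3 libraries of each group, with the mean and SD at the right of each group. Plau libraries lie at 83.9 to 106 CPM under the drugs and at 56.2 to 60.5 with DMSO, while Plat is lowest with Y27632 and Plaur and Serpine2 differ little.

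The share of each gene in the reads of the others was compared within libraries, where gene length and sequencing depth cancel between groups. Plau reads per Plat read were 0.167 to 0.188 with DMSO, 0.282 to 0.288 under blebbistatin and 0.342 to 0.397 under Y27632, and no group overlapped another. Per Serpine2 read, Plau gave 0.244 to 0.273 with DMSO, 0.365 to 0.369 with blebbistatin and 0.365 to 0.441 with Y27632. The drug groups overlapped each other in this ratio and both lay above DMSO. Plau reads per Plaur read ranged from 2.55 to 3.07 with DMSO, from 4.4 to 5.0 with blebbistatin and from 4.71 to 5.27 with Y27632. Plat reads per Serpine2 read fell in 3 separate ranges, 1.45 to 1.47, 1.27 to 1.31 and 1.07 to 1.11 in the same order. These ratios compare groups only; since the files give no transcript lengths, the levels of the 4 genes were not compared with each other.

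**Figure D2:**
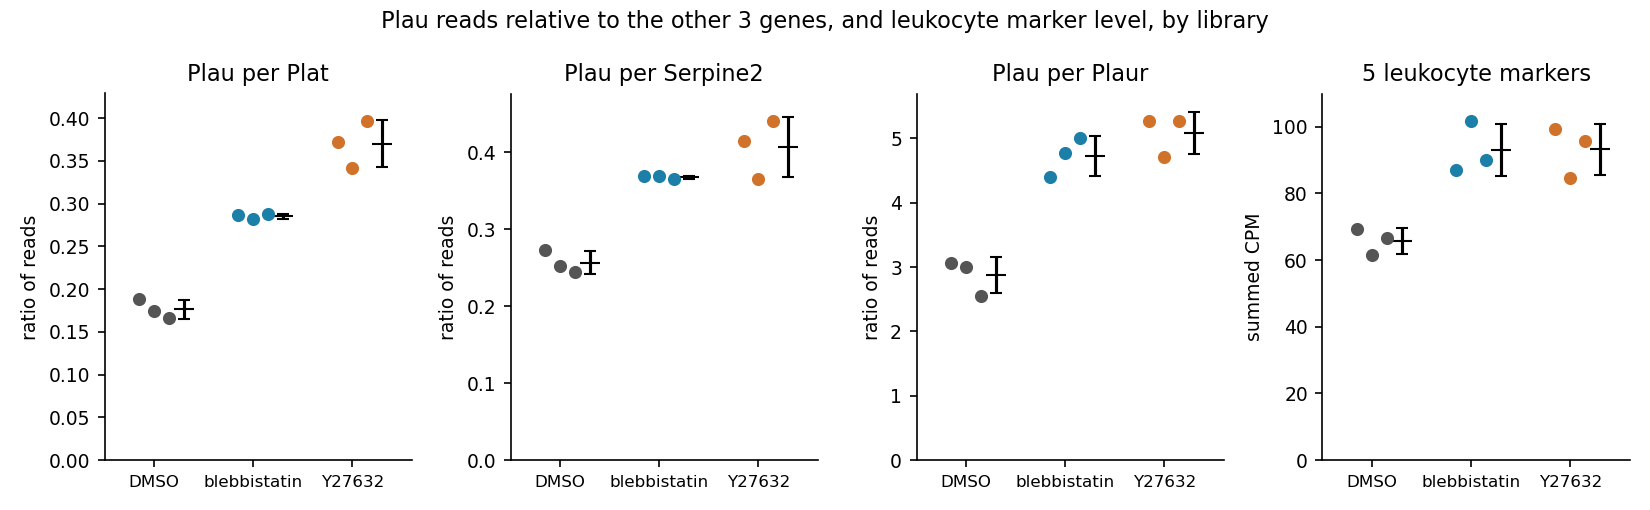
Ratio of Plau reads to the reads of Plat, Serpine2 and Plaur in each library (first 3 panels, no unit) and summed level of the 5 macrophage and leukocyte markers (last panel, CPM), with group mean and SD. In all 4 panels the DMSO libraries lie below every treated library; Plau per Plat separates all 3 groups, at 0.177, 0.285 and 0.370 on average.

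The drugs were also compared directly, in an edgeR fit of the reads of all 9 libraries. The SE values of this comparison were worked out as the absolute log2 change divided by the square root of the F statistic. Plat was higher under blebbistatin than under Y27632 by 0.22 on the log2 scale (SE 0.036), with no overlap. Plau was lower by -0.16 (SE 0.060) with overlapping libraries, and the call was lost without blebbistatin replicate 3 or without Y27632 replicate 1 or 3 (range over single libraries left out, -0.25 to -0.11). The differences for Plaur, -0.050 (SE 0.073), and Serpine2, -0.014 (SE 0.030), were within the spread of overlapping libraries.

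Counted over the 4 genes, 1 was called higher, 1 lower and 2 neither in each comparison. Against this, 26.1% of 14882 genes tested were called higher and 26.9% lower under blebbistatin. Under Y27632 the shares were 18.1% and 17.8% of 14833 genes, and for blebbistatin against Y27632 26.9% and 26.2% of 14955 genes. Libraries did not overlap for 3, 3 and 1 of the 4 genes, and for 60.2%, 48.1% and 60.6% of all genes tested. Both drug comparisons use the same DMSO libraries, and since the 4 genes were chosen on these values nothing is read from the counts. The median absolute log2 change over all genes was 0.22 under blebbistatin and 0.15 under Y27632, which the Plau change exceeded in both and the Plat change under Y27632 alone; the values of Plaur and Serpine2 were smaller than it in both.

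**Figure D3:**
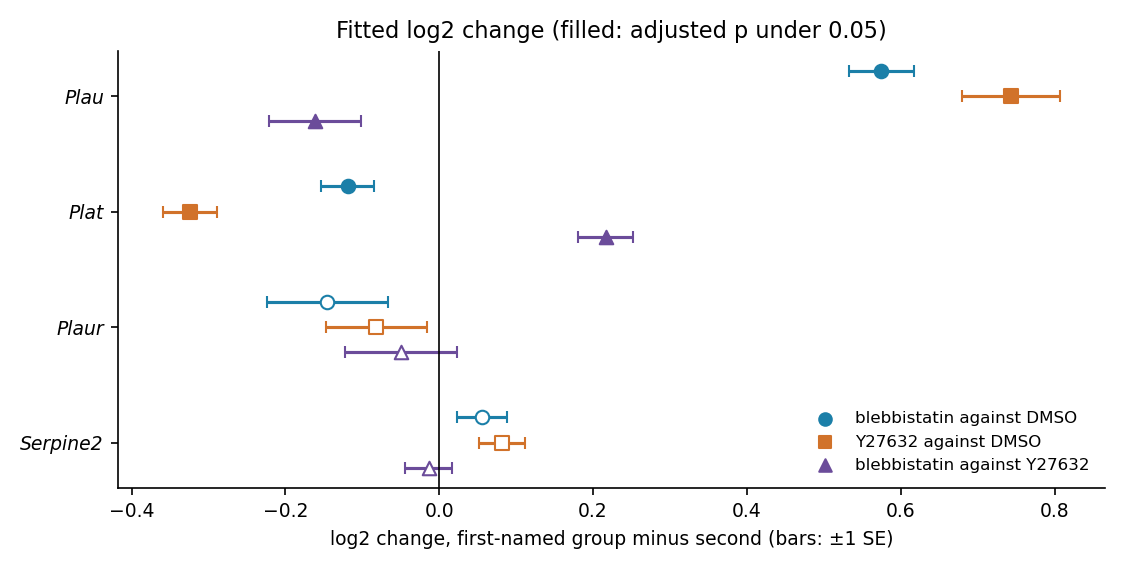
Fitted log2 change of the 4 genes (horizontal axis, first-named group minus second) in 3 comparisons, with bars of 1 SE. For blebbistatin against Y27632 the SE was worked out from the F statistic. Filled symbols passed an adjusted p under 0.05 over all genes. Plau is at 0.57 and 0.74 against DMSO, Plat at -0.12 and -0.32, and the Plaur and Serpine2 values against DMSO lie between -0.15 and 0.082 with open symbols.

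The surroundings of these genes in the pathway were described with 5 lists, 67 genes in all. Of the 54 tested under blebbistatin, 17 rose (1 of them, F7, tested only because its blebbistatin level lifted its mean), 18 fell and 19 did not pass the limma threshold. Under Y27632, 9 rose, 18 fell and 26 did not pass, of 53 tested. Over all genes tested, 26.1% were called higher and 26.9% lower under blebbistatin, and 18.1% and 17.8% under Y27632. No set test was run, and the counts of each list below are to be read beside these shares. The median log2 change of the list genes was 0.053 and -0.018, beside 0.00 and 0.00 over all genes. Without F7, 16 of 53 rose under blebbistatin and the median was 0.039. Among the 22 genes called under both drugs, 7 were higher and 12 lower in both, and 3 (F3, Mst1r and Serpinb9) moved in opposite directions.

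Plg, which encodes plasminogen itself, had 0 reads in all 9 libraries (a count of 0 allows up to 3 reads per library, for counting error only), and Serpinf2, the circulating inhibitor of plasmin, had 0 to 10. F2, which encodes prothrombin, and Vtn, the adhesive protein vitronectin that binds the urokinase receptor, had 0 to 4 reads each. These are mainly liver products, and at this depth their RNA was at or near the detection limit in the fibroblasts.

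Among 14 surface receptors and clearance receptors, 3 rose, 7 fell and 4 did not pass under blebbistatin (median log2 change -0.15), and 3 rose, 5 fell and 6 did not pass under Y27632 (median -0.071). Lrp8, a receptor of the lipoprotein receptor family, fell by 0.68 and 0.57 on the log2 scale. Anxa2 and S100a10, which form the annexin A2 complex that binds plasminogen and tissue plasminogen activator at the cell surface, both fell: Anxa2 by 0.53 and 0.23, S100a10 by 0.16 and 0.15. Itgb3, the integrin beta 3 chain of the vitronectin receptor, rose by 0.91 (SE 0.042) and 0.51 (SE 0.036). Plgrkt, a membrane receptor for plasminogen, was called higher under blebbistatin at 0.13, a call lost without DMSO replicate 2 or 3 or blebbistatin replicate 1 or 3 (0.10 to 0.12), and stood at 0.010 under Y27632. Lrp1, which clears complexes of activators with their serpins, did not pass, at -0.13 (SE 0.088) and -0.096 (SE 0.094). Without DMSO replicate 3 it did, at -0.27 and -0.24.

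Of 16 other protease inhibitors 12 were tested: 3 rose, 1 fell and 8 did not pass under blebbistatin, and 1 rose, 2 fell and 9 did not pass under Y27632 (medians 0.10 and 0.032). Serpina3n, an inhibitor of serine proteases, rose from 10.8 ± 0.22 to 21.3 ± 0.37 CPM under blebbistatin (log2 change 0.98, SE 0.062). Its Y27632 value of 0.21 (SE 0.075) passed narrowly and was lost when any library other than Y27632 replicate 2 was left out (0.17 to 0.22). Serpinb6a, an intracellular serpin, rose under blebbistatin at 0.38 and was at 0.076 under Y27632, where it passed without DMSO replicate 3 (0.10). Serpinb9, the granzyme B inhibitor, rose by 0.26 under blebbistatin and fell by 0.45 under Y27632. Tfpi2, a Kunitz-type inhibitor of plasmin, fell by 0.84 (SE 0.098) under Y27632 and was at -0.24 under blebbistatin, where it passed without DMSO replicate 1 (-0.34). Serpinb2, the type 2 plasminogen activator inhibitor, was at 0.10 (SE 0.177) and 0.17 (SE 0.204) from 80 to 219 reads per library, and did not pass.

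In the list of thrombin and cell-surface coagulation genes, 6 had a mean of at least 10 in both groups under blebbistatin, and of these 2 rose and 4 fell (median -0.37). F7, the other gene tested, met the filter only through blebbistatin (22.6 against 3.16 normalised counts), so its call was bound to follow and it is not counted here. Under Y27632 3 of 6 passed, 1 higher and 2 lower (median 0.045). F2r, the thrombin receptor, fell by 0.38 (SE 0.046) and 0.37 (SE 0.055). F2rl1, the related protease-activated receptor, fell from 15.2 ± 0.998 to 3.08 ± 0.42 CPM under blebbistatin (log2 change -2.30, SE 0.110). Under Y27632 it stood at 0.17, and passed at 0.27 without Y27632 replicate 2. Procr, the endothelial protein C receptor, rose by 1.1 (SE 0.050) under blebbistatin and was at 0.13 under Y27632 (0.17 and called without DMSO replicate 3). Thbd, the thrombin-binding protein thrombomodulin, fell by 0.51 and 0.12, the second value lost without Y27632 replicate 1 or 2 (-0.10 and -0.11). F3, tissue factor, fell by 0.37 under blebbistatin and rose by 0.13 under Y27632, a call lost without DMSO replicate 2 or Y27632 replicate 3 (0.10 and 0.11). Procr and Thbd are also endothelial genes; of the endothelial markers given above, Tek fell under both drugs while Cdh5 and Kdr had positive values that did not pass, and their part here was not tested.

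Of 15 other serine proteases 12 were tested: 5 rose, 2 fell and 5 did not pass under blebbistatin, and 2 rose, 3 fell and 7 did not pass under Y27632 (medians 0.18 and 0.00). Prss23, a secreted protease, fell by 1.21 (SE 0.042) and 0.60 (SE 0.045). Prss35, a secreted protease-like protein, fell by 1.13 under blebbistatin and was at -0.018 under Y27632. Htra3, a secreted protease, rose by 0.50 under blebbistatin and was at -0.0042 under Y27632. Fap, a surface protease of activated fibroblasts, rose by 0.43 and 0.29. Dpp4, its close relative, fell by 0.15 under Y27632 (call lost without DMSO replicate 2, at -0.12) and was at -0.092 under blebbistatin, where it passed without DMSO replicate 3 (-0.13).

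Of 11 substrates and growth factor precursors 9 were tested: 3 rose, 4 fell and 2 did not pass under blebbistatin (median 0.039), and 2 rose, 6 fell and 1 did not pass under Y27632 (median -0.25). Bdnf, a neurotrophin whose precursor plasmin can cut, fell by 1.60 (SE 0.112) under blebbistatin and by 0.39 under Y27632. Pdgfd, a growth factor activated by urokinase, fell by 0.81 and 0.25. Hgf, hepatocyte growth factor, fell by 0.59 under Y27632 and was at 0.24 (SE 0.115) under blebbistatin. Tgfb1, made as a latent growth factor, rose by 0.73 (SE 0.071) and 0.22 (SE 0.049). Mst1r, a receptor tyrosine kinase, rose by 0.49 under blebbistatin and fell by 0.42 under Y27632. Fn1, the matrix protein fibronectin and a plasmin substrate, did not pass, at 0.039 (SE 0.044) and -0.046 (SE 0.045).

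**Figure D4:**
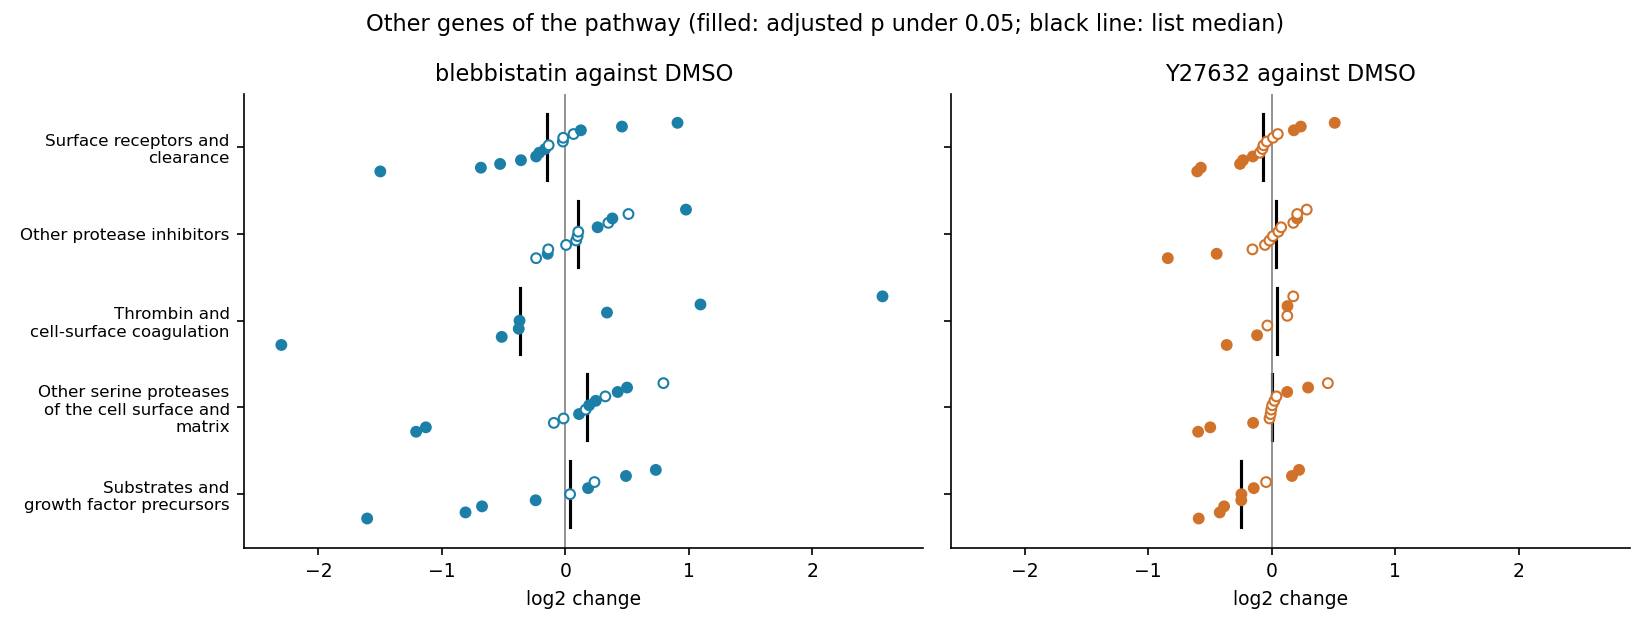
Log2 change of each tested gene of the 5 lists against DMSO (horizontal axis), blebbistatin at left and Y27632 at right; filled points passed an adjusted p under 0.05 and black lines are list medians. Values under blebbistatin spread from -2.30 (F2rl1) to 1.1 (Procr), leaving out F7 at 2.57, which has 2 to 28 reads per library, was tested only through its blebbistatin level and was named after its value was seen; those under Y27632 lie between -0.84 (Tfpi2) and 0.51 (Itgb3).

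Chromatin near the 4 genes was read from the authors' 5 deposited tables of differential sites, which give a mean log2 signal per group, a log2 difference, a p-value and a false discovery rate (FDR), with no value per library. Each table holds sites past a cut set by the authors. With the number of sites tested worked out from the tables' own p-values and FDR, the listed sites were 1.54% of those tested for blebbistatin and 0.335% for Y27632 in the ATAC-seq libraries. In the 12 other libraries they were 8.75% for blebbistatin added to doxycycline, 9.36% for doxycycline against neither drug and 1.78% for blebbistatin without doxycycline. The 4 genes had 8 listed entries at 7 places, all intergenic and upstream of the start, none in a promoter. The Y27632 list and the list of blebbistatin without doxycycline had 0 entries for them.

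Serpine2 had the most, 5 entries at 4 places. The site that carries the TEAD instance shown above (chr1:79903058-79903279) had, in the authors' deposited table, a mean signal of 6.13 with DMSO and 4.49 with blebbistatin, a log2 difference of -1.64 (FDR 0.00756). A place 22077 bases before the start, chr1:79880672-79880812, was in both doxycycline lists of the deposited tables: 4.47 with neither drug against 5.60 with doxycycline (1.13, FDR 0.00106), and 4.55 when blebbistatin was added (-1.06, FDR 0.00118). Those lists share the doxycycline libraries, so the opposite signs are not independent. The deposited table for blebbistatin added to doxycycline had 2 further Serpine2 places. At chr1:79894170-79894345, 35593 bases upstream, the signal was 5.95 with doxycycline and 4.87 with both (-1.07, FDR 0.000392). At chr1:80025853-80026062, 167293 bases upstream, it was 5.89 and 4.80 (-1.09, FDR 0.000381). Serpine2 RNA, described above, did not pass the threshold under either drug.

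The other 3 genes had 1 place each. For Plau, chr14:20827586-20827815, 8961 bases before the start, fell from 6.26 with doxycycline to 5.22 with blebbistatin added in the authors' deposited table (-1.03, FDR 0.000166). For Plat, chr8:22745141-22745276, 12513 bases upstream, was 4.21 with neither drug and 5.31 with doxycycline in the deposited table (1.09, FDR 0.00809). For Plaur, chr7:24459492-24459729, 2872 bases upstream and the nearest of all, was 6.14 with neither drug and 7.34 with doxycycline in the deposited table (1.19, FDR 3.67e-06). Plau RNA was higher with blebbistatin in cells without doxycycline, whereas this Plau site was lower with blebbistatin in cells with it; no RNA libraries with doxycycline were analysed here, so the pair was not compared.

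The direction of the 8 entries follows that of the lists they stand in. Of the listed sites in the authors' deposited tables, 98.2% were lower for blebbistatin in ATAC-seq, 85.0% for Y27632, 99.8% for blebbistatin added to doxycycline, 99.0% for blebbistatin without doxycycline, and 4.15% for doxycycline. All 5 entries of the 4 genes in the blebbistatin lists were lower, and all 3 in the doxycycline list were higher.

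**Figure D5:**
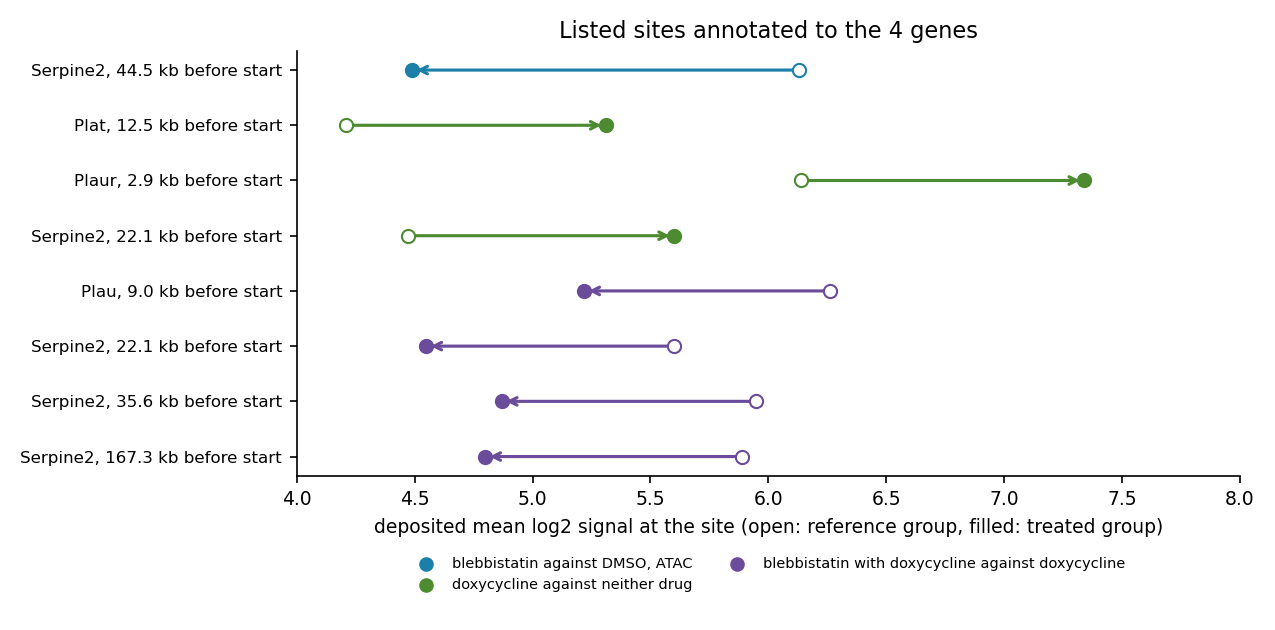
Mean log2 signal, from the authors' deposited tables, of the 8 listed site entries annotated to the 4 genes (horizontal axis; open circle, reference group; filled circle, treated group; labels give the distance before the transcription start). The arrows of blebbistatin point to lower signal and those of doxycycline to higher signal, with differences from -1.64 to 1.19.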

How the data were processed

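RNA tables hold, per the file headers, the authors' DESeq2 normalised counts (signal, one table per drug, both with the same 3 DMSO libraries) with their log2 fold changes and p-values, which were not used. Site tables hold the authors' DiffBind mean log2 signals, differences, p-values and FDR, and HOMER annotations with a distance score in bases from the start, per the file headers. HISAT2, featureCounts, Bowtie2, SAMtools, Picard, MACS2 and build mm10 are named per the submitters' processing notes; versions, pooling and strand use are not given in the sources used here. The reference column of the doxycycline list is headed as the blebbistatin-only group; at 13 sites shared with other lists its values differ from the neither-drug group by -0.13 (SD 0.0044) and from blebbistatin-only by 1.12 (SD 0.184), so it is described as neither drug.

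Genes with a mean of at least 10 were fitted per table by limma 3.58.1 with a trend on log2(value + 1), in R 4.3.3, with Benjamini-Hochberg adjustment over all genes and an adjusted p under 0.05 as the call. The deposited values are whole reads divided by size factors: 100% of values gave whole reads (within 0.01 read), DMSO reads were the same in both tables (0 differed), and those reads gave CPM (with edgeR TMM library sizes) and the edgeR 4.0.16 quasi-likelihood fit of blebbistatin against Y27632. DESeq2 1.42.0, the replicate block, other scalings and filters and leaving out each library were alternatives. 0 per-sample columns were left unmatched. Gene names matched the RefSeq table for 93.1% of rows, used for loci on GRCm38, the mm10 assembly. Fits were tested on simulated data with changes larger than any of the 4 genes, so that test does not cover changes of their size. Same-numbered libraries did not deviate together, so no pairing was used.

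The members and lists were chosen with earlier results of these data known. Named beside the 4 genes are, per list and drug, the 3 called genes of largest change with a mean of at least 100, genes kept for their roles whatever their values, and the 3 genes most alike in pattern. A gene that this rule names is not reported here.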

Additional observations from a re-analysis of the deposited data

How the results depend on the processing

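Of 76 alternative settings of the 4 genes' values other than leaving out a library, 75 kept direction and side of the threshold; Serpine2 under Y27632 passed it with TMM scaling, at 0.087. Leaving out 1 library at a time, ranges that crossed a threshold or 0 were -0.22 to -0.081 for Plaur under blebbistatin, and for blebbistatin against Y27632 -0.25 to -0.11 (Plau), -0.13 to 0.0042 (Plaur) and -0.042 to 0.0014 (Serpine2). Genes called numbered 6994 to 7394 under blebbistatin (7894 with every library), 4304 to 4839 under Y27632 (5328) and 7166 to 7985 between drugs (7935). With a replicate block they were 7604, 4633 and 7700, and no call of the 4 genes changed. Correlations between same-numbered libraries were -0.09 to 0.04, which cannot show whether such libraries came from the same culture or animal. DESeq2 called 6631, 4109 and 6866. Of 24 list alternatives 23 stayed within 1.5 times; the 1 higher inhibitor under Y27632 (Serpina3n) became 0 with edgeR. For 728 alternatives of the named list genes, 689 kept direction and call, 20 lost a call, 8 gained one and 11 changed sign: Htra3 under Y27632 was 0.0013 with TMM scaling (-0.023 to 0.023 over libraries left out), and ranges were -0.016 to 0.079 for Fn1 and -0.075 to 0.26 for Serpinb2 under blebbistatin, and -0.014 to 0.036 for Plgrkt, -0.082 to 0.040 for Prss35 and -0.0010 to 0.43 for Serpinb2 under Y27632. At an FDR of at most 0.01 all 8 site entries stayed; counting sites by distance, 11 entries lay within 100 kb. Plaur, with 466 to 707 reads, has the widest intervals of the 4 genes.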

Other observations

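Genes whose pattern over the 9 RNA libraries was most like each of the 4 were found by Pearson's correlation. It was taken on log2(reads + 1), with the reads of the 9 libraries scaled together, among 11457 genes with a mean of at least 100 such reads. The libraries share treatment groups, so the values only describe likeness. For Plau these were Phlda1, Ttyh2 and Arrdc3, each at 0.99. For Plat they were Ints6 (0.99), Ica1 (0.98) and 2210016F16Rik (0.97). Serpine2 was most like Lat2 (0.97), B3galnt2 (0.96) and Sdf4 (0.94). Plaur, whose libraries overlapped, was most like Mrps2 (0.95), Qpctl (0.92) and Mgrn1 (0.90).

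Within 100 kb of the 4 starts, the authors' deposited tables hold 4 further entries annotated to other genes. A site in intron 1 of Irgc1, 23.1 kb before the Plaur start, was lower with blebbistatin in ATAC-seq (-1.41), and an intergenic site annotated to Ikbkb, 30.6 kb before the Plat start, was lower when blebbistatin was added to doxycycline (-1.11). The promoters of Wdfy1, 96.9 kb beyond the Serpine2 start, and of Irgq, 68.2 kb beyond the Plaur start, were higher with doxycycline (1.16 and 1.04).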
